A study of Mus musculus with 2 samples.

Results

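The killer cell lectin-like receptors are cell-surface proteins encoded by the Klr genes, and every gene of the deposited tables whose symbol starts with Klr was taken as a member. This gave 26 of the 31053 genes listed, and all 26 lie on chromosome 6. The genes were followed in peritoneal cells taken from mice 3 days after zymosan, a yeast cell wall particle that causes sterile inflammation, was put into the peritoneal cavity at 1 mg per animal. The Cd36-/- library came from mice labelled LysM-Cre (x) floxed CD36, and the fl/fl library from mice labelled floxed CD36, aged 10 to 14 weeks in both groups. Each library was made from a pool of 4 replicates by the 10x Genomics 3′ v2 protocol, so each group is 1 sample, no spread between animals can be computed and no test was made. LysM-Cre acts in macrophages and other myeloid cells, and natural killer (NK) cells and T cells are not its targets. The strain background was not given in the sources used here.

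NK cells read these receptors to decide whether to attack a neighbouring cell. Inhibitory members bind MHC class I or related molecules and signal through phosphatases, whereas activating members have no signalling motif of their own and pair with the adaptors Tyrobp (DAP12) or Hcst (DAP10). The genes sit side by side in the NK gene complex, and the Klra (Ly49) genes are switched on in varied combinations from cell to cell and differ in number between mouse strains. Some members are also carried by memory CD8 T cells, γδ T cells and dendritic cells.

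Of the 26 genes, Klrg2 starts at position 38625693 of chromosome 6 (mm10) and Klrg1 at 122270596. The other 24 lie between 128609227 and 131247362. Promoter sequence was available for 23 members, as 28 windows of the 250 bases before a transcription start (RefSeq, GRCm38.p6). The windows below are shown because they belong to the most abundant Klra genes of the NK cells (Klra4 and Klra7), to Klra2 and Klra17, which had almost no UMIs in NK cells, and to Klrk1 and Klrb1c from outside the Klra group. All are on the minus strand and are written 5′ to 3′ towards the start of the gene. Capitals mark exact matches to a Runx core (TGTGGT or its reverse complement ACCACA) or to an Ets core (GAGGAA or TTCCTC).
Klra4, chr6:130067272-130067521: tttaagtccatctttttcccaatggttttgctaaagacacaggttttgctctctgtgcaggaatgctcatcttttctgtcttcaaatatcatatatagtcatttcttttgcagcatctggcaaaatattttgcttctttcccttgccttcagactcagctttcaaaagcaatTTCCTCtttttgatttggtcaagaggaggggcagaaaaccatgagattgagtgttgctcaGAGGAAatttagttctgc
Klra7, chr6:130233323-130233572: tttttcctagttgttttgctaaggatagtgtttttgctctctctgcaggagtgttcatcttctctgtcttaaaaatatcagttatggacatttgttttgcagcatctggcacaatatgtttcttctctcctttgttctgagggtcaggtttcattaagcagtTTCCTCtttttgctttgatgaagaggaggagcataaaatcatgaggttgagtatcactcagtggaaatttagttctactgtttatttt
Klra2, chr6:131247363-131247612: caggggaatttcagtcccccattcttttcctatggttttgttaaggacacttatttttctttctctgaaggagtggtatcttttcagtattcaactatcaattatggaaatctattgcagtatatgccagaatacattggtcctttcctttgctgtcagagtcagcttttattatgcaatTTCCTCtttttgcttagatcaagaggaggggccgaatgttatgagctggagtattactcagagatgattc
Klra17, chr6:129876673-129876922: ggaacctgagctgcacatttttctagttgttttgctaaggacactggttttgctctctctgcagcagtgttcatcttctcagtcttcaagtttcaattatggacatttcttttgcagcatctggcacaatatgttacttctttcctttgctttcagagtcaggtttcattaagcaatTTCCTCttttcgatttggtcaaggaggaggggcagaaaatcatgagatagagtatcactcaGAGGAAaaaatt
Klrk1, chr6:129623865-129624114: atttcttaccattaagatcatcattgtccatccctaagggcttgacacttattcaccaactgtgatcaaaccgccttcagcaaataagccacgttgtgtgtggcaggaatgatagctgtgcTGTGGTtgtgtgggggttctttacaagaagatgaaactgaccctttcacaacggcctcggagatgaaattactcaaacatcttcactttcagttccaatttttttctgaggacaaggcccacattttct
Klrb1c, chr6:128788642-128788891: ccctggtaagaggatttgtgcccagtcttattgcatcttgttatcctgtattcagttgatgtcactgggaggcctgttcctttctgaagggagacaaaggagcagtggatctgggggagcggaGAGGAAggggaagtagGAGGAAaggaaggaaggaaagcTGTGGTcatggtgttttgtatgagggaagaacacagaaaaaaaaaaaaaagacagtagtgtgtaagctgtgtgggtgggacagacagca

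The 4 Klra windows resembled each other closely although their genes were detected in different cells. Over the aligned bases, the Klra4 window was 83.5% identical to that of Klra17, 81.5% to that of Klra7 and 76.2% to that of Klra2, against 54.4% to that of Klrk1. Each of these 4 windows held the Ets core in the form TTCCTC. Another Klra7 window, from 130231688 to 130231937, was 59.45% identical to that of Klra4 and held 0 matches to the Ets core. The Ets core was found in 10 of 13 Klra windows and in 17 of all 28 Klr windows, against 23.3% of the 32851 promoter windows of all genes. The Runx core was found in 1 of 13 Klra windows, that of Klra1, and in 9 of 28 Klr windows, against 14.0% of all windows. A T-box half-site (AGGTGTGA or TCACACCT) was found in 0 of 28 Klr windows and in 1.12% of all windows. These matches describe letters only. The windows are not independent, because related genes share ancestry and some windows of 1 gene overlap.

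The libraries held 14966 (Cd36-/-) and 13965 (fl/fl) cells after filtering, with a median of 6561.5 (Cd36-/-) and 6892 (fl/fl) UMIs, or unique molecules counted, per cell. Before filtering, 383 cell barcodes occurred in both libraries. Cd36 itself was at 173 CPM (UMIs of a gene per total UMIs of its class) in macrophages of the Cd36-/- library and at 242 CPM in those of the fl/fl library. The floxed exons were not given, so a count of 3′ ends does not check the deletion. Cells were grouped by clustering in which no Klr gene was used. In the Cd36-/- library this gave 527 NK cells, 918 T cells, 436 type 2 dendritic cells (cDC2), 38 type 1 dendritic cells (cDC1), 9710 macrophages, 2922 B cells and 105 neutrophils. In the fl/fl library it gave 358 NK cells, 726 T cells, 570 cDC2, 34 cDC1, 7674 macrophages, 4227 B cells and 135 neutrophils.

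Klr transcripts were concentrated in NK cells. Summed over the 26 genes, NK cells had 7263 CPM (95% Poisson interval 7116 to 7411) in the Cd36-/- library and 6566 CPM (6405 to 6729) in the fl/fl library. NK cells made up a small part of all cells yet held 61.6% of the Klr UMIs of the Cd36-/- cells and 53.8% of those of the fl/fl cells. The intervals, here and below, cover counting error only and not the spread between mice. T cells followed at 478 CPM in Cd36-/- and 464 CPM in fl/fl, cDC2 at 307 CPM in Cd36-/- and 322 CPM in fl/fl, cDC1 at 190 CPM in Cd36-/- and 141 CPM in fl/fl, and macrophages at 34.7 CPM in Cd36-/- and 28.9 CPM in fl/fl. B cells, which are not known to carry these receptors, had 11.8 CPM in Cd36-/- and 7.09 CPM in fl/fl and are given beside the others as a level for free RNA.

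Single members divided into a large NK group and a few that were highest elsewhere. 20 members reached 20 CPM in at least 1 class and library, and 18 of them did so in NK cells. Members were ranked over named classes of at least 50 cells in each library. The level of 21 members was highest in NK cells, of 2 in macrophages (Klra2 and Klrg2), of 2 in γδ T cells (Klri1 and Klra6) and of 1 in neutrophils (Klra17). The last 3 placements rest on few molecules: Klra17 had 3 UMIs in Cd36-/- and 7 in fl/fl neutrophils, and in γδ T cells Klra6 had 4 in Cd36-/- and 0 in fl/fl, and Klri1 0 in Cd36-/- and 2 in fl/fl. The cDC1, too few to enter this ranking, held 7.84% of the Klri1 UMIs of the fl/fl cells. Klrg2, Klrb1, Klrc3, Klri1, Klra5 and Klra6 stayed below 20 CPM in every class. A UMI counts a transcript end and is not scaled by length, so the order of genes by CPM also carries differences in capture between genes.

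**Figure D1:**
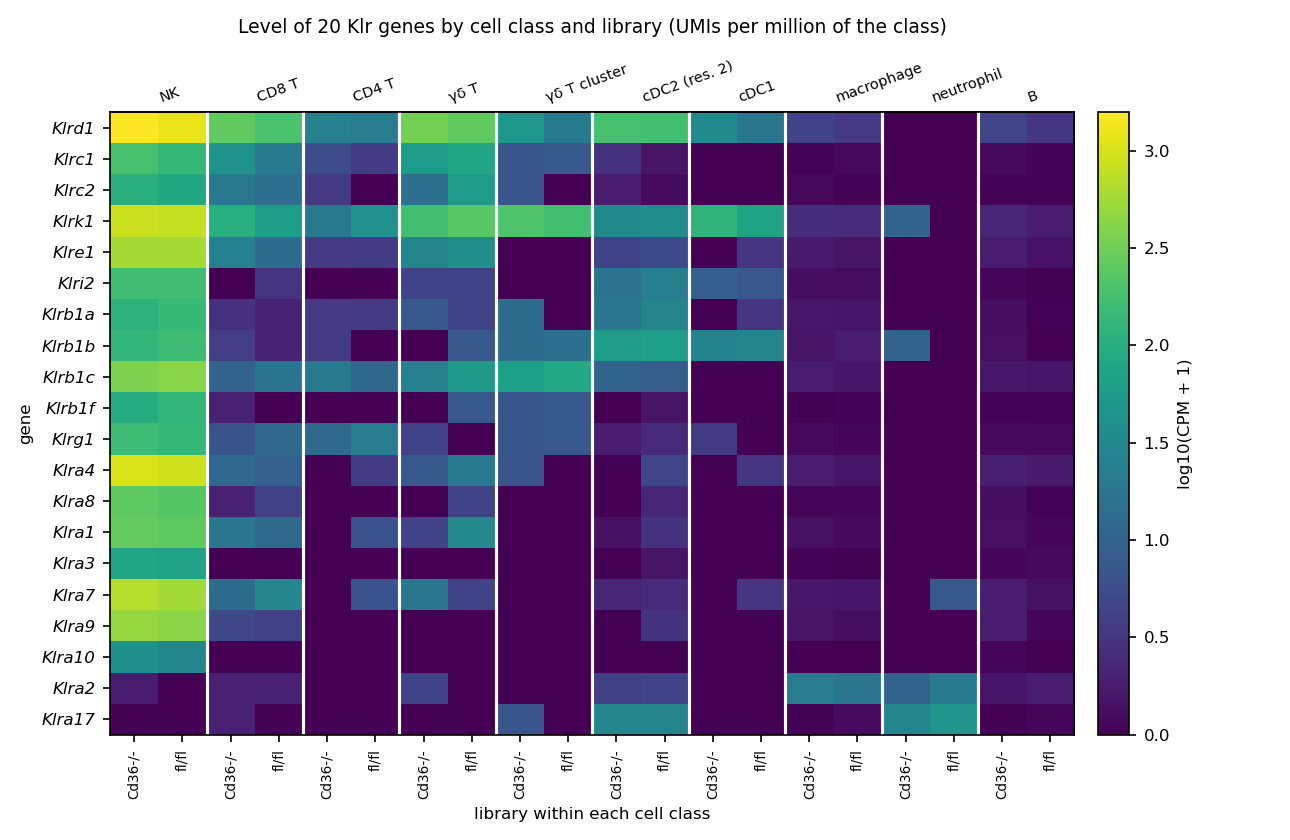
Heat map of 20 Klr genes (rows) in 10 cell classes (column pairs, the Cd36-/- library left of the fl/fl library), coloured by log10(CPM + 1). The brightest block is NK cells for 18 genes. Klra2 is brightest in macrophages, Klra17 in cDC2 and neutrophils, and Klrd1 and Klrk1 also appear in CD8 T, γδ T and dendritic cells. The cDC2 column comes from clustering at resolution 2.

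Klrd1 (CD94), the partner that NKG2 chains need to reach the surface, was the most abundant member in NK cells. It stood at 1580.7 CPM in Cd36-/- NK cells (2032 UMIs) and 1244.4 CPM in fl/fl NK cells (1210 UMIs), a log2 ratio of 0.35 with a counting interval of 0.24 to 0.45. It was seen in 93.9% of Cd36-/- and 92.5% of fl/fl NK cells. When each cell was thinned to 1500 UMIs, which left 466 Cd36-/- and 345 fl/fl cells, these shares were 87.3% (Cd36-/-) and 85.8% (fl/fl), against 0.724% (Cd36-/-) and 0.540% (fl/fl) of thinned B cells. The share differed little, and the molecules per positive cell were 4.11 in Cd36-/- and 3.66 in fl/fl cells. The unthinned median depth was 2177 (Cd36-/-) and 2498 (fl/fl) UMIs in NK cells and 3650.5 (Cd36-/-) and 4284 (fl/fl) UMIs in B cells.

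The chains that pair with Klrd1 were less abundant. Klrc1 (NKG2A), the inhibitory chain whose complex with CD94 binds Qa-1, was at 186 CPM in Cd36-/- and 133 CPM in fl/fl NK cells (log2 ratio 0.49, 0.17 to 0.81). Klrc2 (NKG2C), the activating chain, was at 107 CPM in Cd36-/- and 81.3 CPM in fl/fl (0.39, -0.02 to 0.81). Klrc3, another NKG2 chain, had 4 UMIs in Cd36-/- and 1 UMI in fl/fl NK cells. Both measured chains were higher in the Cd36-/- library, and only the Klrc1 interval lay above 0. These 3 genes share sequence at their 3′ ends, so counts may pass between them: up to 56.3% of the 50-base windows in the last 500 bases of a Klrc1 transcript also occur in Klrc2 or Klrc3.

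Klrk1 (NKG2D), the activating receptor for stress-induced ligands of the Raet1, Ulbp1 and H60 kind, was at 884 CPM in Cd36-/- and 838 CPM in fl/fl NK cells (log2 ratio 0.08, -0.05 to 0.21). Klre1, which forms pairs with Klri1 or Klri2, was at 587 CPM in Cd36-/- and 583 CPM in fl/fl (0.01, -0.15 to 0.17). Of these partners, Klri2, the activating one, was at 163 CPM in Cd36-/- and 167 CPM in fl/fl (-0.04, -0.34 to 0.27), and Klri1, the inhibitory one, had 6 UMIs in Cd36-/- and 5 in fl/fl NK cells. Klrg1, an inhibitory receptor for cadherins, was at 161 CPM in Cd36-/- and 133 CPM in fl/fl (0.28, -0.04 to 0.61). For each of these genes the counting interval of the ratio held 0, so no difference was detectable at this depth.

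The 4 detected Klrb1 (NKR-P1) genes were all lower in Cd36-/- NK cells. Klrb1c (NK1.1), an activating member used as a marker of mouse NK cells, was at 374 CPM in Cd36-/- and 421 CPM in fl/fl NK cells (log2 ratio -0.17, -0.36 to 0.02). Klrb1b, an inhibitory member that binds the Clec2d product, was at 131 CPM in Cd36-/- and 160 CPM in fl/fl (-0.30, -0.62 to 0.03), and Klrb1a at 111 CPM in Cd36-/- and 138 CPM in fl/fl (-0.31, -0.66 to 0.04). Klrb1f, which binds the Clec2i product, was at 95.7 CPM in Cd36-/- and 131 CPM in fl/fl (-0.45, -0.82 to -0.08). Only the Klrb1f interval lay below 0. The same direction held for all 4 under the 9 other settings tried, while Klrb1a, Klrb1b and Klrb1c share 3′ sequence in some of their transcripts and cannot be counted as separate observations.

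Among the Klra (Ly49) genes, 7 of 11 reached 20 CPM in NK cells. The activating Klra4 (Ly49D) led at 1047.8 CPM in Cd36-/- and 935 CPM in fl/fl NK cells (log2 ratio 0.16, 0.04 to 0.29). Klra8 (Ly49H), the activating receptor for a cytomegalovirus protein, was at 256 CPM in Cd36-/- and 223 CPM in fl/fl (0.20, -0.05 to 0.45). Klra7 (Ly49G), an inhibitory receptor for MHC class I, was at 691 CPM in Cd36-/- and 576 CPM in fl/fl (0.26, 0.11 to 0.42). The inhibitory Klra9 (Ly49I) was at 492 CPM in Cd36-/- and 443 CPM in fl/fl (0.15, -0.03 to 0.33) and Klra1 (Ly49A) at 265 CPM in Cd36-/- and 253 CPM in fl/fl (0.07, -0.17 to 0.31). Klra3 (Ly49C) was at 76.2 CPM in Cd36-/- and 68.9 CPM in fl/fl (0.15, -0.32 to 0.62), and Klra10 (Ly49J) at 39.7 CPM in Cd36-/- and 28.8 CPM in fl/fl (0.46, -0.23 to 1.18). All 7 log2 ratios were above 0 in these clusters, and the intervals of Klra4 and Klra7 lay above 0. When NK cells were instead chosen by marker gates with no clusters, Klra1, Klra3 and Klra4 had log2 ratios of -0.02, -0.05 and -0.0085, and Klra7 had 0.04. Klra3, Klra8, Klra9 and Klra10 share 3′ sequence with each other, up to 53.9% of windows for Klra9, and Klra7 shares up to 27.5% with a pseudogene, so their levels are uncertain.

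The 4 remaining Klra genes were rare or missing in NK cells. Klra5 had 7 UMIs in Cd36-/- and 0 in fl/fl NK cells, Klra6 had 1 in Cd36-/- and 2 in fl/fl, and Klra2 had 1 in Cd36-/- and 0 in fl/fl. Klra17 (Ly49Q) had 0 UMIs in both, which allows up to 2.87 CPM in Cd36-/- and 3.79 CPM in fl/fl NK cells at the upper limit of the exact interval.

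**Figure D2:**
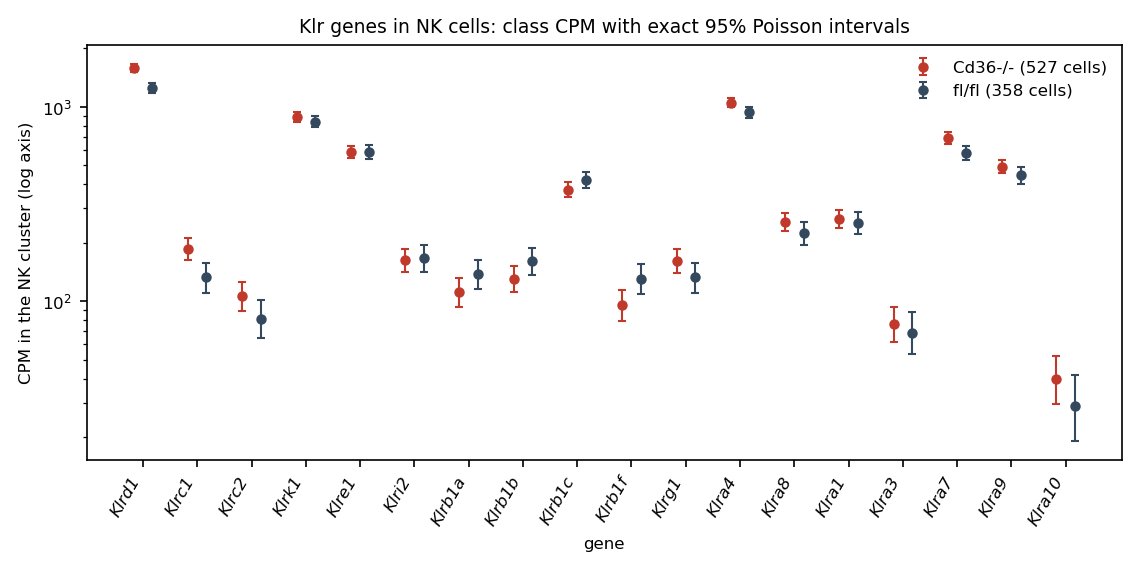
Level of 18 Klr genes in NK cells (vertical log axis, CPM) in the Cd36-/- library (red, 527 cells) and the fl/fl library (dark, 358 cells), with exact 95% Poisson intervals of counting error. Klrd1, Klrc1 and Klra7 are higher in the Cd36-/- library with intervals that do not meet, and the intervals of the other 15 genes overlap.

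Across the family, 0 of the 18 Klr genes compared in NK cells differed by 2-fold or more, against 2.83% of all 5200 genes with at least 20 CPM in 1 library. Of the 18, 13 were higher and 5 lower in the Cd36-/- library, and their median log2 ratio was 0.15, against 0.04 over all 5200 genes. The summed Klr level had a log2 ratio of 0.15 (0.10 to 0.19). Scaling by the median ratio of all genes brought this to 0.10 and turned Klre1 to -0.04. NK genes outside the family moved by similar amounts in both directions, with Ncr1 at 0.29, Gzma at 0.12, Gzmb at 0.66, Prf1 at -0.13 and Eomes at -0.34.

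The NK cells of both libraries differed in other ways. Of 12 cell cycle genes on a list, 7 were compared and all 7 were higher in Cd36-/- NK cells, 4 of them by at least 2-fold (1.52% of all genes were), with a median log2 ratio of 1.72. Stmn1, for example, was at 159 CPM in Cd36-/- and 48.3 CPM in fl/fl NK cells. Without the cells that held a Mki67 or Top2a UMI (28 in Cd36-/- and 14 in fl/fl), the summed Klr log2 ratio was 0.17. Markers of other cells also differed: 4 basophil markers summed to 169 CPM in Cd36-/- and 1.03 CPM in fl/fl NK cells, 6 mast cell markers to 293 CPM in Cd36-/- and 175 CPM in fl/fl, 9 macrophage markers to 793 CPM in Cd36-/- and 557 CPM in fl/fl, 8 T cell markers to 769 CPM in Cd36-/- and 750 CPM in fl/fl, and 5 red cell markers to 3.89 CPM in Cd36-/- and 2037 CPM in fl/fl. These sums can rest on few cells: 477 of the 482 Hba-a1 UMIs of fl/fl NK cells lay in 1 cell, and the 136 Mcpt8 UMIs of Cd36-/- NK cells lay in 4 cells. Of the basophil list, 3 of 4 genes were at 0 in fl/fl NK cells. The summed Klr log2 ratio was 0.15 when cells with a Mcpt8 or Cpa3 UMI were left out. The part of the red cell, macrophage and T cell transcripts in these values was not tested. Of 6 type 1 innate lymphoid genes, only Tmem176a was compared, at 42.0 CPM in Cd36-/- and 21.6 CPM in fl/fl NK cells (log2 ratio 0.96, 0.21 to 1.76). The others were below 20 CPM and each higher in Cd36-/-, from few UMIs, with Cxcr6 at 25 UMIs in Cd36-/- and 4 in fl/fl. The part of such cells in the Klr ratios was not tested. The 10 NK markers were all detected in both libraries and summed to 12541 CPM in Cd36-/- and 11949 CPM in fl/fl.

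Signalling partners in NK cells were abundant and close in level. Tyrobp was at 3915 CPM in Cd36-/- and 3704 CPM in fl/fl NK cells, Fcer1g, another adaptor chain, at 1982 CPM in Cd36-/- and 2016 CPM in fl/fl, and Hcst at 877 CPM in Cd36-/- and 939 CPM in fl/fl. Of 14 adaptor and signalling genes, 13 were compared, 6 higher and 7 lower, with a median log2 ratio of -0.02. Inpp5d (SHIP-1), a phosphatase recruited by inhibitory receptors, was the 1 past 2-fold (2.83% of all genes were), at 42.8 CPM in Cd36-/- and 87.4 CPM in fl/fl NK cells (log2 ratio -1.03). None of the 12 NK transcription factors compared passed 2-fold, and 5 were higher and 7 lower, with a median of -0.14. Among them, Ets1 was at 309 CPM in Cd36-/- and 409 CPM in fl/fl (-0.41) and Tcf7 at 92.6 CPM in Cd36-/- and 126 CPM in fl/fl (-0.45). Of 7 maturation genes compared, 4 were higher and 3 lower, with Ly6c2 at 342 CPM in Cd36-/- and 254 CPM in fl/fl (0.43) and Spn at 133 CPM in Cd36-/- and 188 CPM in fl/fl (-0.50).

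Ligands of the receptors were counted in macrophages, the most numerous cells. Of 14 ligand genes, 6 were compared, 5 higher and 1 lower, and none passed 2-fold (0.131% of 4595 genes did), with a median log2 ratio of 0.13 against -0.01 over all genes. H2-T23, which encodes Qa-1, was at 62.2 CPM in Cd36-/- and 68.3 CPM in fl/fl macrophages. Clec2i was at 24.5 CPM in Cd36-/- and 18.5 CPM in fl/fl and Clec2d at 24.8 CPM in Cd36-/- and 24.5 CPM in fl/fl. NKG2D ligands were scarce, with Ulbp1 at 5.89 CPM in Cd36-/- and 5.64 CPM in fl/fl and Raet1e at 0.939 CPM in Cd36-/- and 1.02 CPM in fl/fl. Cdh1, the cadherin read by Klrg1, was at 0.0741 CPM in Cd36-/- and 0.0831 CPM in fl/fl.

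Single NK cells carried different sets of Klra genes. With each cell thinned to 1500 UMIs, a mean of 2.22 of the 7 Klra genes had a UMI in a Cd36-/- NK cell and 2.07 in an fl/fl NK cell. No Klra gene was seen in 11.8% of Cd36-/- and 14.8% of fl/fl NK cells, 1 gene in 19.7% (Cd36-/-) and 20.9% (fl/fl), 2 genes in 27.3% (Cd36-/-) and 28.1% (fl/fl), and 3 or more in 41.2% (Cd36-/-) and 36.2% (fl/fl), with overlapping exact intervals. In thinned CD8 T cells 94.9% (Cd36-/-) and 93.9% (fl/fl) had none, and in B cells 99.5% (Cd36-/-) and 99.7% (fl/fl). A gene without a UMI may still be expressed. Without thinning the means were 2.69 (Cd36-/-) and 2.71 (fl/fl). These are not matched for depth, as the median was 2177 UMIs in Cd36-/- and 2498 UMIs in fl/fl NK cells.

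**Figure D3:**
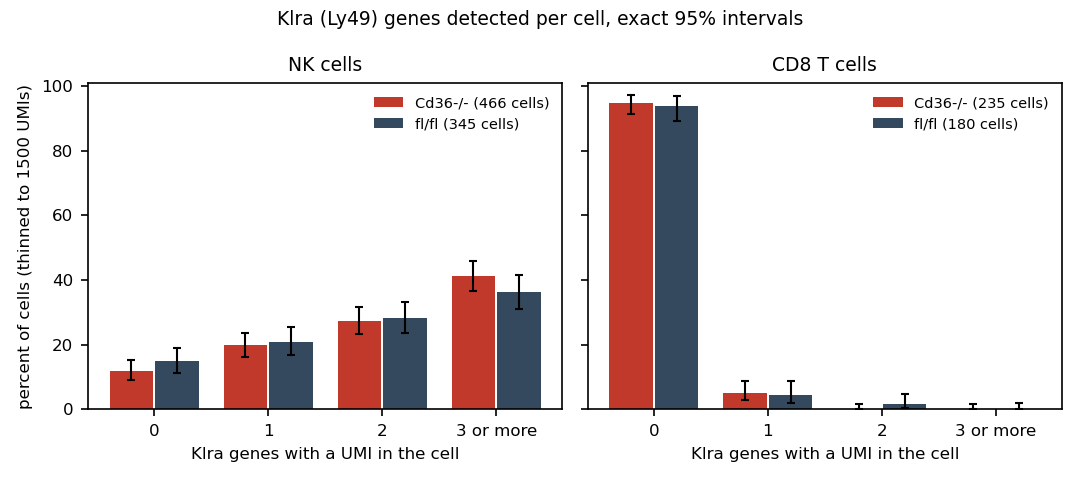
Percent of NK cells (left) and CD8 T cells (right) with a UMI of 0, 1, 2 or at least 3 of 7 Klra genes after thinning to 1500 UMIs, in the Cd36-/- library (red) and the fl/fl library (dark), with exact 95% binomial intervals. NK cells spread over all 4 groups, with 41.2% (Cd36-/-) and 36.2% (fl/fl) in the highest, whereas 94.9% (Cd36-/-) and 93.9% (fl/fl) of CD8 T cells are in the group with none.

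The levels of single Klra genes per cell were uneven. Klra7 was seen in 256 Cd36-/- and 166 fl/fl NK cells, with as many as 22 (Cd36-/-) and 16 (fl/fl) UMIs in 1 cell. Klra4 was seen in 385 Cd36-/- and 258 fl/fl NK cells, at 3.50 (Cd36-/-) and 3.52 (fl/fl) UMIs per positive cell. Most pairs of Klra genes met in the same cell more often than the product of their shares would give, in both libraries. The pairs below the product in both libraries were Klra9 with Klra7 and Klra3 with Klra1. Klra7 with Klra1 was also below it in Cd36-/- NK cells, and Klra7 with Klra3 in fl/fl NK cells. Klra9 and Klra7 were both seen in 17.8% of Cd36-/- NK cells against a product of 18.1%, and in 13.6% of fl/fl NK cells against 14.9%. Klra4 and Klra9, for which no shared 3′ sequence was found, met in 31.5% against 27.6% (Cd36-/-) and in 27.5% against 23.7% (fl/fl). Klra8 and Klra9 met in 16.1% against 10.2% (Cd36-/-) and in 12.2% against 7.94% (fl/fl). Klra8 and Klra9 share 3′ sequence, and the part of shared sequence and of depth in these pair counts was not tested.

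NK cells with a Klrc1 UMI had another receptor profile than those without, in both libraries. This split was chosen after its values were seen, and a cell without a UMI may still express the gene. It set 124 cells with against 403 without in the Cd36-/- library, at median depths of 2350 (with) and 2129 (without), and 79 against 279 in the fl/fl library, at 2499 (with) and 2497 (without). Klrc2 was at 314 CPM with and 28.9 CPM without a Klrc1 UMI in Cd36-/- NK cells, and at 226 CPM with and 39.7 CPM without in fl/fl NK cells. The 7 Klra genes together were at 1631 CPM with and 3330 CPM without in the Cd36-/- library (log2 ratio -1.03, -1.16 to -0.90) and at 1527 CPM with and 2815 CPM without in the fl/fl library (-0.88, -1.05 to -0.71). All 7 were lower in the cells with a Klrc1 UMI in both libraries. Klri2 was also lower, with log2 ratios of -1.67 in Cd36-/- and -1.60 in fl/fl, and Klrb1b was higher, with 0.90 in Cd36-/- and 0.72 in fl/fl. Klrd1 had a log2 ratio of -0.32 (-0.47 to -0.17) in Cd36-/- NK cells and an interval of -0.21 to 0.19 in fl/fl NK cells, unlike its partner chain Klrc2. The Klrc2 value may hold counts that belong to Klrc1, since both share 3′ sequence.

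**Figure D4:**
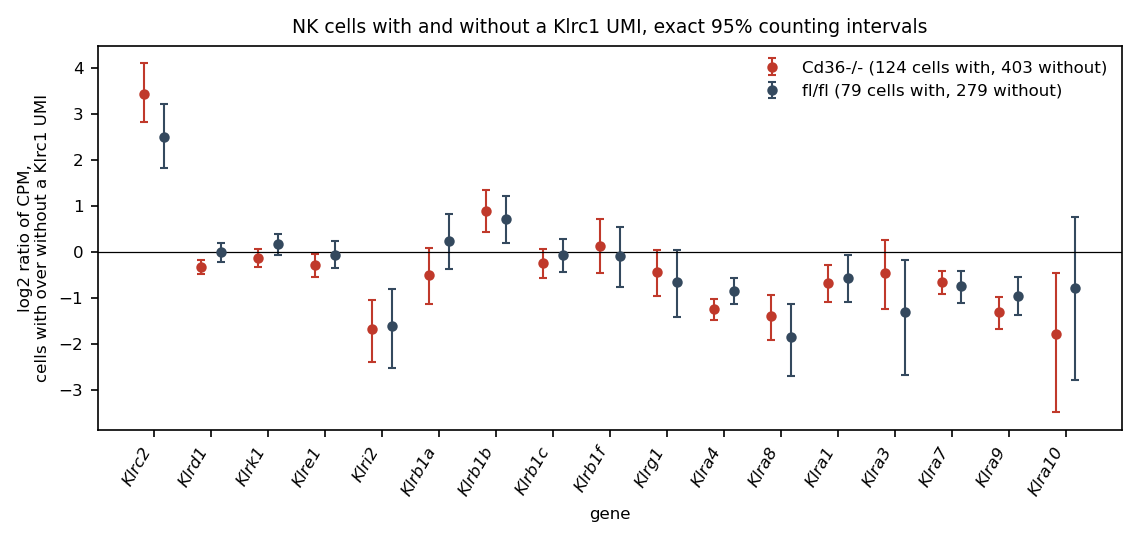
Log2 ratio of CPM in NK cells with over without a Klrc1 UMI, for 17 Klr genes, in the Cd36-/- library (red) and the fl/fl library (dark), with exact 95% counting intervals. The 7 Klra genes and Klri2 lie below 0 in both libraries, and Klrc2 and Klrb1b lie above it.

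A Klrg1 UMI, by contrast, did not go with the Klra level. The 7 Klra genes together had a log2 ratio of -0.04 in Cd36-/- and 0.05 in fl/fl NK cells with over without a Klrg1 UMI (132 Cd36-/- and 95 fl/fl cells with). Il7r, a gene of less mature NK cells picked from a list of 9 maturation genes, had -2.37 in Cd36-/- and -2.79 in fl/fl. All NK cells together held only 52 (Cd36-/-) and 36 (fl/fl) Il7r UMIs, so these ratios rest on few molecules. The Klrg1 split was not among the planned ones. In cells with a Mki67 or Top2a UMI the summed Klra log2 ratio, with over without, was -0.16 in Cd36-/- and -0.18 in fl/fl.

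T cells held 10.9% of the Klr UMIs of the Cd36-/- cells and 12.2% of those of the fl/fl cells. Klrd1 was at 192 CPM in Cd36-/- and 164 CPM in fl/fl T cells (log2 ratio 0.22, 0.05 to 0.39), and Klrk1 at 105 CPM in Cd36-/- and 102 CPM in fl/fl (0.05, -0.17 to 0.27). The others compared were Klra7 at 29.4 CPM in Cd36-/- and 34.3 CPM in fl/fl, Klrc1 at 26.7 CPM in Cd36-/- and 25.4 CPM in fl/fl, Klre1 at 22.4 CPM in Cd36-/- and 27.0 CPM in fl/fl and Klrb1c at 20.9 CPM in Cd36-/- and 28.9 CPM in fl/fl. Of the 6 genes, 0 passed 2-fold (0.444% of 4505 genes did). NK genes outside the family stood in T cells at a median of 3.69% (Cd36-/-) and 3.18% (fl/fl) of their NK level, with a highest value of 5.36% (Cd36-/-) and 6.86% (fl/fl). Klra7 at 4.25% (Cd36-/-) and 5.96% (fl/fl), Klre1 at 3.81% (Cd36-/-) and 4.62% (fl/fl) and Klrb1c at 5.59% (Cd36-/-) and 6.87% (fl/fl) lay near those values, whereas Klrd1 stood at 12.1% (Cd36-/-) and 13.2% (fl/fl). With this whole median share subtracted as if it were free RNA, the log2 ratio was -2.06 for Klra7, -3.55 for Klre1 and -1.13 for Klrb1c. Without subtraction these were -0.23, -0.27 and -0.47. In B cells, given above as a level for free RNA, the same NK genes had a median of only 0.135% (Cd36-/-) and 0.0883% (fl/fl). The subtraction may thus remove more than free RNA, and the part of free RNA in the T cell share was not tested. The T cell class also held cells with B cell transcripts, with Cd79a at 754 CPM in Cd36-/- and 576 CPM in fl/fl. Without cells that had a Cd79a UMI, the summed Klr level was 686 CPM in Cd36-/- and 568 CPM in fl/fl. Klra6 (Ly49F) was rare but lay almost wholly in T cells, with 34 of 35 UMIs in Cd36-/- cells and 30 of 36 UMIs in fl/fl cells, against 1 UMI in Cd36-/- and 2 in fl/fl NK cells.

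In CD8 T cells (245 Cd36-/- and 182 fl/fl cells with a Cd8a or Cd8b1 UMI and no Cd4 UMI) the CD94 and NKG2 genes were higher and Klra7 lower in the Cd36-/- library. Klrd1 was at 258 CPM in Cd36-/- and 188 CPM in fl/fl cells (log2 ratio 0.45, 0.17 to 0.73), and Klrk1 at 104 CPM in Cd36-/- and 60.3 CPM in fl/fl (0.78, 0.31 to 1.27). Klrc1 was at 42.8 CPM in Cd36-/- and 19.0 CPM in fl/fl (1.17, 0.35 to 2.04), from 45 UMIs in Cd36-/- and 18 in fl/fl. Klra7 was at 12.4 CPM in Cd36-/- and 29.6 CPM in fl/fl (-1.26, -2.33 to -0.26), from 13 UMIs in Cd36-/- and 28 in fl/fl. Klre1 was at 24.7 CPM in Cd36-/- and 12.7 CPM in fl/fl (0.96, -0.08 to 2.08), from 26 UMIs in Cd36-/- and 12 in fl/fl. Of 5 genes compared, 1 was at least 2-fold higher and 1 at least 2-fold lower, against 1.96% (higher) and 1.39% (lower) of 4388 genes, and the median log2 ratio was 0.78 against 0.06 over all genes. Thinned to 1500 UMIs, 33.2% of Cd36-/- and 21.1% of fl/fl CD8 T cells had a Klrd1 UMI. Without cells that had a Cd79a UMI, Klrk1 was at 124 CPM in Cd36-/- and 61.8 CPM in fl/fl and Klrc1 at 55.2 CPM in Cd36-/- and 16.7 CPM in fl/fl. The summed Klr level was then 636 CPM in Cd36-/- and 446 CPM in fl/fl. The CD8 T cell ratios were not recomputed under the other processing alternatives, so their dependence on these is not known. Of the adaptors, Tyrobp was at 364 CPM in Cd36-/- and 268 CPM in fl/fl CD8 T cells (0.44, 0.21 to 0.68) and Fcer1g at 173 CPM in Cd36-/- and 109 CPM in fl/fl (0.67, 0.31 to 1.03). Of 6 genes on a type 1 innate lymphoid list, 3 were compared and 2 were at least 2-fold higher, Cxcr6 at 55.1 CPM in Cd36-/- and 23.3 CPM in fl/fl (1.25) and Tmem176a at 54.2 CPM in Cd36-/- and 26.4 CPM in fl/fl (1.04). The cell cycle genes went the other way in CD8 T cells, with 6 of 7 compared at least 2-fold lower in Cd36-/- cells and a median log2 ratio of -1.21.

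The CD8 T cell levels were set beside those of NK cells. Ncr1, a gene of NK cells, was at 0.951 CPM in Cd36-/- and 0 CPM in fl/fl CD8 T cells, or 0.156% (Cd36-/-) and 0% (fl/fl) of its NK level. The 5 NK genes outside the family, Ncr1 among them, had a median of 5.68% (Cd36-/-) and 5.41% (fl/fl) of their NK level and a highest value of 12.0% (Cd36-/-) and 9.75% (fl/fl). Klrc1 in CD8 T cells stood at 23.01% (Cd36-/-) and 14.3% (fl/fl) of its NK level, Klrc2 at 16.9% (Cd36-/-) and 16.9% (fl/fl), Klrd1 at 16.3% (Cd36-/-) and 15.1% (fl/fl) and Klrk1 at 11.7% (Cd36-/-) and 7.19% (fl/fl), whereas Klra4 stood at 1.09% (Cd36-/-) and 0.905% (fl/fl). CD4 T cells (109 Cd36-/- and 92 fl/fl) had little of the family, with Klrd1 at 23.7 CPM in Cd36-/- and 21.9 CPM in fl/fl, Klrk1 at 18.9 CPM in Cd36-/- and 41.0 CPM in fl/fl and Klrg1 at 11.8 CPM in Cd36-/- and 21.9 CPM in fl/fl. The Klrk1 values rest on 8 UMIs in Cd36-/- and 15 in fl/fl.

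γδ T cells were taken in 2 ways, by a gate and by a cluster. Cells with a Trdc UMI and no Cd4, Cd8a or Cd8b1 UMI (80 Cd36-/- and 75 fl/fl cells) had 690 CPM of all Klr genes in Cd36-/- and 805 CPM in fl/fl, against 521 CPM in Cd36-/- and 393 CPM in fl/fl CD8 T cells. Klrd1 was at 338 CPM in Cd36-/- and 258 CPM in fl/fl and Klrk1 at 171 CPM in Cd36-/- and 234 CPM in fl/fl, and their counting intervals overlapped between libraries. Ncr1 was also present in this gate, at 23.9 CPM in Cd36-/- and 30.9 CPM in fl/fl. The 3 γδ T cell markers, in turn, summed to 126 CPM in Cd36-/- and 121 CPM in fl/fl NK cells. In T cells they summed to 176 CPM in Cd36-/- and 169 CPM in fl/fl. The part of cells with NK transcripts in the Klr level of the gate was not tested. The separate cluster led by Tcrg-C1 and Cd163l1 (51 Cd36-/- and 35 fl/fl cells) had 0 CPM of Ncr1 in both libraries and a summed Klr level of 379 CPM in Cd36-/- and 322 CPM in fl/fl, below that of the gate. In it Klrk1 was at 205 CPM in Cd36-/- and 171 CPM in fl/fl and Klrb1c at 62.1 CPM in Cd36-/- and 89.0 CPM in fl/fl, while Klrd1 had only 8 UMIs in Cd36-/- and 3 in fl/fl, and Klra4 had 1 in Cd36-/- and 0 in fl/fl. In this cluster Klrk1 was above Klrd1, whereas in NK and CD8 T cells of both libraries Klrd1 was above Klrk1.

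Type 2 dendritic cells carried a further set of members at similar levels in both libraries, except for Klrb1a under some settings. Klrd1 was at 142 CPM in Cd36-/- and 133 CPM in fl/fl cDC2 (log2 ratio 0.09, -0.07 to 0.26), Klrb1b at 43.0 CPM in Cd36-/- and 50.1 CPM in fl/fl (-0.22, -0.52 to 0.07) and Klrk1 at 31.5 CPM in Cd36-/- and 31.9 CPM in fl/fl (-0.02, -0.37 to 0.34). Klra17 was at 21.8 CPM in Cd36-/- and 22.4 CPM in fl/fl, and Klrb1a at 25.1 CPM in Cd36-/- and 30.6 CPM in fl/fl (-0.283, -0.672 to 0.098). The Klrb1a log2 ratio was -0.674 at resolution 2, -0.743 with a mitochondrial limit of 5% and -0.695 with Klr genes allowed in the clustering. Each of these lay outside that interval. None of these 5 genes passed 2-fold (0.443% of 4515 genes did), and 4 of them were lower in Cd36-/- cDC2, though the Klrk1 and Klra17 ratios were above 0 under some other settings. Klri2 was at 14.5 CPM in Cd36-/- and 19.3 CPM in fl/fl, and Klri1, rare everywhere, had 67.9% (Cd36-/-) and 68.6% (fl/fl) of its UMIs in cDC2. Of the Klra17 UMIs, 90.7% of those in Cd36-/- cells and 81.3% of those in fl/fl cells lay in cDC2.

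The cDC2 values were set against genes that mark other cells. Klrb1b stood at 32.9% (Cd36-/-) and 31.2% (fl/fl) of its NK level, Klrb1a at 22.6% (Cd36-/-) and 22.2% (fl/fl) and Klrd1 at 8.97% (Cd36-/-) and 10.7% (fl/fl), against a median of 0.167% (Cd36-/-) and 0.320% (fl/fl) for 5 NK genes outside the family. T cell markers summed to 264 CPM in Cd36-/- and 143 CPM in fl/fl in cDC2, against 3397 CPM in Cd36-/- and 3280 CPM in fl/fl in T cells, and T cells had only 4.07 CPM in Cd36-/- and 3.53 CPM in fl/fl of Klrb1b. With clustering at resolution 2, which set apart Retnla-positive MHC class II macrophages, the cDC2 cluster (315 Cd36-/- and 417 fl/fl cells) had Klrd1 at 184 CPM in Cd36-/- and 167 CPM in fl/fl, Klrb1b at 57.2 CPM in Cd36-/- and 63.7 CPM in fl/fl and Klra17 at 29.2 CPM in Cd36-/- and 28.3 CPM in fl/fl. Klrb1a went the other way in this cDC2 cluster. It fell from 22.6% to 15.522% of its NK level in Cd36-/- and from 22.2% to 19.997% in fl/fl. Its share in cDC2 thus depended on the clustering, more so in the Cd36-/- library. The separated macrophages had 0 UMIs of Klra17 in both libraries, Klrb1b at 5.51 CPM in Cd36-/- and 4.11 CPM in fl/fl and Klrd1 at 16.5 CPM in Cd36-/- and 6.85 CPM in fl/fl. Klra17 (Ly49Q) is known as a member made by myeloid cells and plasmacytoid dendritic cells rather than NK cells.

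Type 1 dendritic cells were few. Klrk1 was their leading member at 120 CPM in Cd36-/- (45 UMIs) and 70.4 CPM in fl/fl cDC1 (33 UMIs), with a log2 ratio of 0.77 (0.09 to 1.47). Klrb1b was at 26.7 CPM in Cd36-/- and 27.7 CPM in fl/fl and Klrd1 at 32.1 CPM in Cd36-/- and 17.1 CPM in fl/fl, while Klrc1 and Ncr1 had 0 UMIs in both libraries. In Cd36-/- cDC1 the level of Klrk1 was above that of Klrd1, the reverse of cDC2, and the same held in fl/fl cDC1.

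Klra2 (Ly49B) was the macrophage member of the family. It was at 21.4 CPM in Cd36-/- macrophages (1729 UMIs) and 17.3 CPM in fl/fl macrophages (1248 UMIs), a log2 ratio of 0.31 (0.20 to 0.41). Of its UMIs, 96.9% (Cd36-/-) and 95.6% (fl/fl) lay in macrophages, against 0.0561% (Cd36-/-) and 0% (fl/fl) in NK cells. It was seen in 15.1% (Cd36-/-) and 13.9% (fl/fl) of macrophages at full depth and in 2.89% (Cd36-/-) and 2.44% (fl/fl) after thinning, against 0.114% (Cd36-/-) and 0.0981% (fl/fl) of thinned B cells. The level followed the macrophage clusters. The Cx3cr1 and Ccr2 cluster was highest at 42.6 CPM in Cd36-/- and 35.0 CPM in fl/fl. The other 3 clusters with little Gata6, led by cell cycle genes, Folr2 or Arg1, ranged from 16.7 to 23.5 CPM over both libraries, and the 3 large peritoneal macrophage clusters from 9.51 to 14.9 CPM. Klra2 was higher in the Cd36-/- library in 5 of 7 clusters and lower in the Alox15 cluster (10.7 CPM in Cd36-/- and 12.0 CPM in fl/fl) and the mitotic large peritoneal macrophage cluster (9.51 CPM in Cd36-/- and 9.66 CPM in fl/fl). With every cluster weighted equally the log2 ratio was 0.22. Klra2 was the only member compared in macrophages, and it did not pass 2-fold (0.131% of genes did).

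**Figure D5:**
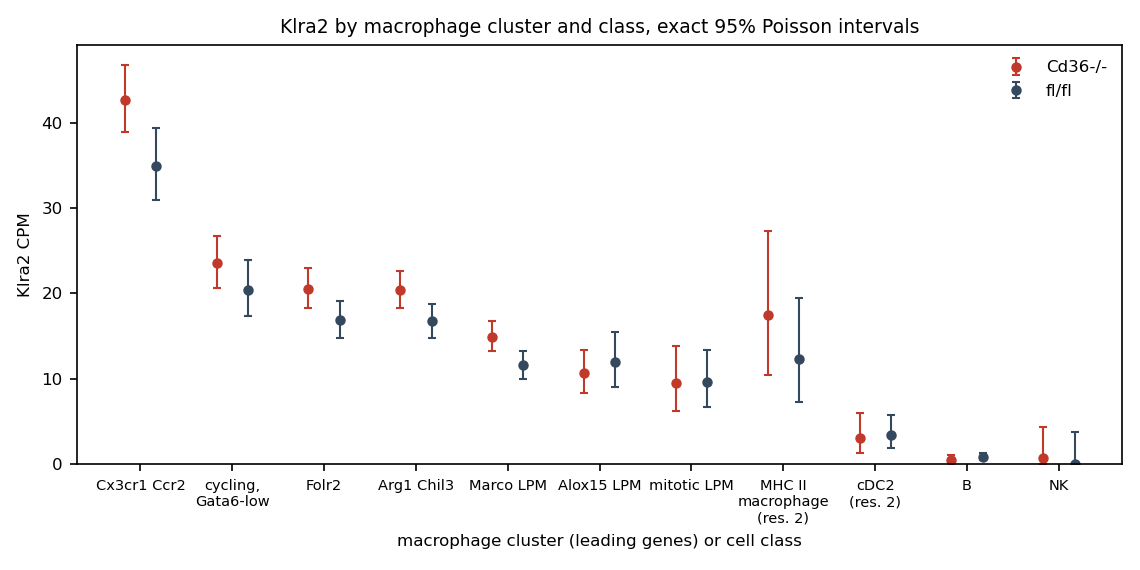
Klra2 level (CPM, linear axis from 0) in 7 macrophage clusters named by leading genes and in 4 other classes, for the Cd36-/- library (red) and the fl/fl library (dark), with exact 95% Poisson intervals. LPM stands for large peritoneal macrophage. The Cx3cr1 and Ccr2 cluster is highest at 42.6 CPM in Cd36-/- and 35.0 CPM in fl/fl, B cells and NK cells lie below 1 CPM, and cDC2 taken at resolution 2 lie at 3.07 CPM in Cd36-/- and 3.45 CPM in fl/fl.

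Klrg2, whose role is less known, was also a macrophage gene here, though a rare one. It was at 2.37 CPM in Cd36-/- macrophages (192 UMIs) and 2.58 CPM in fl/fl macrophages (186 UMIs), and 96.0% (Cd36-/-) and 97.4% (fl/fl) of its UMIs lay in that class. Within it, macrophages with little Gata6 had 3.09 CPM in Cd36-/- and 3.30 CPM in fl/fl and large peritoneal macrophages 1.00 CPM in Cd36-/- and 1.23 CPM in fl/fl. The 18 members compared in NK cells lay in macrophages at 0.0465% to 0.533% of their NK level. The 5 NK genes outside the family gave a median of 0.120% (Cd36-/-) and 0.0958% (fl/fl) there and a highest value of 0.192% (Cd36-/-) and 0.113% (fl/fl). Klrb1a at 0.533% (Cd36-/-) and 0.372% (fl/fl), Klrb1b at 0.369% (Cd36-/-) and 0.475% (fl/fl) and Klrd1 at 0.216% (Cd36-/-) and 0.194% (fl/fl) lay above that highest value in both libraries. Klrb1c at 0.198% (Cd36-/-) and 0.138% (fl/fl) lay slightly above it.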

How the data were processed

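Peritoneal cells of 1 pooled library per group were measured by single-cell RNA sequencing. The deposited values are counts of unique molecular identifiers (UMIs) per gene and cell barcode; per the submitters' processing notes the authors used Cell Ranger and mm10, and per the file headers the software version was 3.0.0. The libraries held 16543 (Cd36-/-) and 15537 (fl/fl) barcodes with 116600732 (Cd36-/-) and 117238057 (fl/fl) UMIs in total.

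From these counts, barcodes with under 200 genes (36 in Cd36-/-, 38 in fl/fl) or over 10% mitochondrial UMIs (507 in Cd36-/-, 766 in fl/fl) were left out. Scrublet then marked 1034 (Cd36-/-) and 768 (fl/fl) doublets, which were removed. Cells of both libraries were clustered together with scanpy 1.11.5 and leidenalg 0.10.2 (Python 3.11.15, 2000 variable genes without Klr genes, 40 components, 20 neighbours, resolution 1). Clusters were named from markers, with the naming thresholds set after seeing the data. UMIs were summed per class and library and divided by the class total to give CPM. Cells cannot stand in for animals, so no p-value is given. Level intervals are exact Poisson, ratio intervals come from the exact conditional binomial, and share intervals are Clopper-Pearson, each at 95% and for counting error only. Shares of cells with a UMI were compared after thinning each cell to 1500 UMIs, leaving out shallower cells.

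Named members had at least 20 CPM in 1 library, in a class of at least 50 cells in each library. A gene was compared and counted as past 2-fold under the same limit of 20 CPM in 1 library. Members outside this rule that the text singles out were chosen after their values were seen. The members and the lists of adaptors, ligands, transcription factors, maturation, innate lymphoid and cell cycle genes were chosen with earlier results of these data known. Alternatives were other mitochondrial limits, doublets kept, finer clustering, clustering with Klr genes, marker gates on single cells, scaling by the median gene ratio, no cycling NK cells, free RNA subtracted, other low-value limits and other depths.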

Additional observations from a re-analysis of the deposited data

How the results depend on the processing

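No paired analysis was possible because each group is 1 pooled library, and for the same reason no replicate could be left out. Under the alternatives, 42 values of levels, summed ratios, shares and means stayed within the interval of the reported value and 31 did not. Of 259 ratios of single members, 243 stayed within it and 16 did not, and 17 had the other sign, 16 of these within the interval. These counts include the NK values at resolution 2, which were identical to the reported ones. The summed Klr log2 ratio in NK cells (0.15) was 0.20 with doublets kept and 0.082 with marker gates. With doublets kept the NK level was 6879 CPM in Cd36-/- and 5993 CPM in fl/fl, and the macrophage level 42.1 CPM in Cd36-/- and 33.9 CPM in fl/fl. The number of members past 2-fold in NK cells (0) stayed at 0 under 9 of 11 settings and was 1 with a limit of 5 CPM and 2 with no limit beyond 1 UMI in each library. The Klra4 log2 ratio in NK cells (0.16) was -0.0085 under marker gates. Free RNA subtraction was not run for NK cells, whose own genes define it.

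The direction of the T cell sum depended on the setting. Its log2 ratio (0.04) was 0.26 with a mitochondrial limit of 5%, 0.24 at resolution 2 and -0.18 with marker gates. It was -0.28 with the median NK gene share subtracted as free RNA, which may remove more than free RNA. Without Cd79a-positive cells, an alternative chosen after seeing the data, it was 0.27. The T level was 694 CPM in Cd36-/- and 587 CPM in fl/fl at resolution 2, and 686 CPM in Cd36-/- and 568 CPM in fl/fl without Cd79a-positive cells. The cDC2 level was 366 CPM in Cd36-/- and 383 CPM in fl/fl at resolution 2, and 366 CPM in Cd36-/- and 380 CPM in fl/fl with Klr genes allowed in the clustering. The causes were not tested. Ratios in CD8 T cells were not recomputed under these settings, apart from leaving out Cd79a-positive cells.

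Shares depended on depth. Without thinning, Klrd1 was seen in 93.9% of Cd36-/- and 92.5% of fl/fl NK cells and in 35.5% of Cd36-/- and 32.4% of fl/fl T cells. Klrk1 was then seen in 83.7% of Cd36-/- and 85.5% of fl/fl NK cells and in 18.8% of Cd36-/- and 18.9% of fl/fl T cells. The mean number of Klra genes per NK cell was 1.81 in Cd36-/- and 1.70 in fl/fl after thinning to 1000 UMIs, and 2.69 in Cd36-/- and 2.71 in fl/fl without thinning. The other 2 alternatives chosen after seeing the data were NK cells without a Mcpt8 or Cpa3 UMI and macrophage clusters weighted equally.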
